A study of Mus musculus with 8 samples.

Results

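RNA of naive CD4+ T cells labelled as double knockouts of Ezh1 and Ezh2 was compared with RNA of WT cells. The values are, for each gene, the mean over its exons of the peak of read coverage per M reads, so they are not divided by gene length and levels are compared between libraries, not between genes. Of 22410 genes in the files, 5313 had a value of 1 or more in the higher of the 2 libraries and entered the comparison. The other 17097 were below that minimum. The double KO carries Ezh1 -/- together with floxed Ezh2 alleles and a CD4-cre transgene (Ezh1 -/- Ezh2 fl/fl CD4-cre). Beside it stand the Ezh1 -/- cells (Ezh1 KO), the Ezh2 fl/fl CD4-cre cells (Ezh2 KO) and the WT cells. The cells came from lymph nodes, the mice were of the 129SV/B6 strain, and the ages of the mice and the number pooled are not given in the sources used here. A cre driven by Cd4 regulatory sequence acts during T cell development in the thymus, so by this design the Ezh2 deletion is aimed at T cells, while Ezh1 -/- is a germline genotype. Each genotype has 1 RNA library, so differences carry neither an error nor a significance test, and "higher" and "lower" compare 1 library with another.

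The Polycomb complex PRC2 works with either Ezh1 or Ezh2 as its catalytic subunit and methylates lysine 27 of histone H3. The trimethylated form, H3K27me3, marks the promoters of genes held silent, such as developmental transcription factors. In CD4+ T cells, Ezh2 is known for restraining cytokine and differentiation programmes after activation, whereas Ezh1 is more prominent in non-dividing cells.

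Ezh1 RNA was 0.194 in the double KO, 0.196 in Ezh1 KO cells, 1.12 in Ezh2 KO cells and 1.05 in WT. Taken as the median over its 21 exons, it was 0.0208 in the double KO and 0.960 in WT. The libraries of both Ezh1 -/- genotypes were thus low and the other two were high, as their labels give. Ezh2 RNA was 1.17 in the double KO, 0.913 in Ezh1 KO cells, 1.08 in Ezh2 KO cells and 0.925 in WT. Values taken over all exons may miss the loss of a floxed part, so the Ezh2 deletion was not checked here and rests on the labels. No other PRC2 subunit differed by 2-fold, and of all genes compared 1.24% did. Suz12, a core subunit, was 2.39 in the double KO and 2.06 in WT. Eed, the subunit that binds H3K27me3, was 3.10 in the double KO and 3.93 in WT.

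Judged by the value of a single read, the libraries held 94.1 M reads in the double KO, 70.4 M in the Ezh1 KO, 40.7 M in the Ezh2 KO and 36.1 M in WT, and 1294 genes were at 0 in the double KO against 2863 in WT. The defining CD4 T cell markers were present, with summed values of 179 in the double KO and 200 in WT. Markers of other cell types were low but not absent. The 6 B cell markers summed to 6.54 in the double KO, 2.32 in Ezh1 KO cells, 3.82 in Ezh2 KO cells and 2.12 in WT. The 5 myeloid markers summed to 1.32 in the double KO, 0.678 in Ezh1 KO cells, 0.728 in Ezh2 KO cells and 0.378 in WT, where Cd14 was at 0. Lyz2 made up most of the myeloid sum, and the other 4 markers summed to 0.137 in the double KO and 0.104 in WT.

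The double KO and WT libraries were alike for most genes. The median log2 ratio, double KO over WT after adding 0.1 to each value, was -0.10, with 5th and 95th percentiles of -0.50 and 0.39, and 5048 genes (95.01%) lay within 1.5-fold. At least 2-fold higher in the double KO were 57 genes (1.07%), and at least 2-fold lower were 9 (0.169%), together 1.24% of the genes compared. Without a minimum, 126 genes (0.585%) were higher and 30 (0.139%) lower. Of the 57 higher genes, 38 were under 1 in WT. By the median over exons as well as the mean, 50 genes (0.941%) were higher and 8 (0.151%) lower. Interferon-stimulated genes and B cell genes made up 24 of the 57 higher genes (42.1%), whereas members of these lists were 62 (1.17%) of all genes compared. Both lists were chosen with earlier results of these data known, so these shares only describe the higher genes. Of the 19 higher genes at 1 or more in WT, the interferon list gave 5 and the B cell list 3. The genes just inside the higher threshold were Fcer2a at a log2 ratio of 1.05 and Ifih1 at 1.06, and just outside it were Dhx58 and Kif1b, both at 0.99. On the lower side Gm3550 at -1.12 was just inside and Gm8355 at -0.99 just outside.

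**Figure D1:**
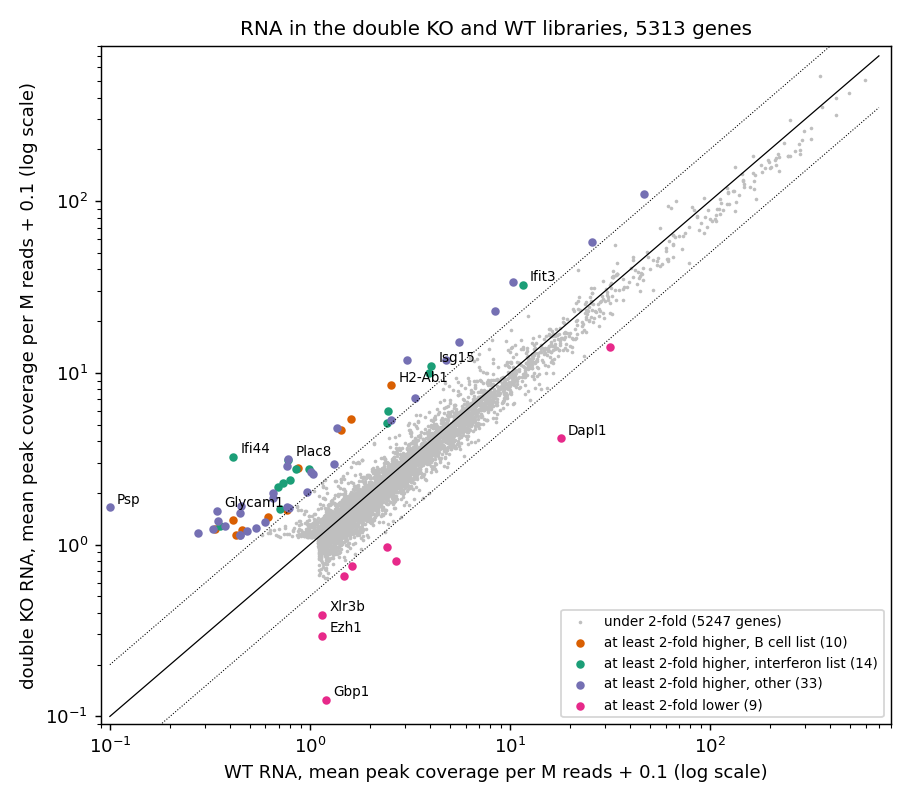
RNA of 5313 genes, given as peak coverage per M reads averaged over exons plus 0.1, double KO on the vertical and WT on the horizontal axis, both logarithmic; each point is 1 gene, the solid line marks equal values and the dotted lines 2-fold. Most points lie along the line, with 57 genes above the upper dotted line and 9 below the lower one, and Psp sits at the left edge because it was at 0 in WT.

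Interferon-stimulated genes, which encode antiviral proteins and are switched on when cells sense interferon, were the largest of the listed groups among the higher genes. All 52 listed genes were measured and 50 reached the minimum, of which 14 (28%) were at least 2-fold higher and 1 lower, against 1.07% and 0.169% of all genes. In WT 40 of the list were at 1 or more, and among these 5 were at least 2-fold higher, so 9 of the 14 passed the minimum through their double KO value. The list's median log2 ratio was 0.75, and that of all genes -0.10. Higher by any amount were 48 of the 50, against 32.9% of all genes. Members under 1 in WT entered through their double KO value and could only count as higher.

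A motif of interferon-responsive promoters is GAAANNGAAA or its reverse complement TTTCNNTTTC. It was searched on both strands of the 250 bases before the RefSeq start of each gene (GRCm38.p6). It was in 5 of the 10 higher list members with a promoter (50.0%), in 9 of 26 list members under 2-fold (34.6%), in 160 of 4166 compared genes (3.84%), and in 936 of the 27025 genes in the promoter table (3.46%). Of the 30 higher genes outside the interferon list with a promoter, 4 held it (13.3%). The 6 higher B cell-list genes with a promoter are among these 30, and none of the 6 held it. The stretches of the 5 higher members are shown because they carry it, in the direction of transcription, with the matches in capitals and overlapping ones merged.
Isg15: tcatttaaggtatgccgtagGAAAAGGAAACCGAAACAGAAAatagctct
Oas1a: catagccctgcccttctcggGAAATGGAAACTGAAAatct
Oas3: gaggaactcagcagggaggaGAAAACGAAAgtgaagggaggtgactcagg
Ifit3: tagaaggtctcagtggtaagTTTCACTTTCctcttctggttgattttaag
Rsad2: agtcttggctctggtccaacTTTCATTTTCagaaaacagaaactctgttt
They lie at chr4:156200867-156200916 (minus strand), chr5:120907526-120907565 (minus), chr5:120777705-120777754 (minus), chr19:34583353-34583402 (plus) and chr12:26456543-26456592 (minus), in the order shown. The windows of Oasl2, Ifi44, Oasl1, Ifih1 and Irf7, which were also higher, held no match.

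Ifi44, an interferon-induced protein of uncertain biochemical role, had the largest ratio of the list, at 3.14 in the double KO, 0.598 in Ezh1 KO cells, 2.29 in Ezh2 KO cells and 0.314 in WT (log2 ratio 2.96). Rsad2, which encodes the antiviral enzyme viperin, was 2.07 in the double KO, 0.909 in Ezh1 KO cells, 1.80 in Ezh2 KO cells and 0.593 in WT (1.64). Isg15, a ubiquitin-like modifier, was 10.9 in the double KO, 5.14 in Ezh1 KO cells, 13.8 in Ezh2 KO cells and 3.94 in WT (1.44). In all 3 genes WT was lowest, the Ezh1 KO next, and the double KO and Ezh2 KO highest. Picking genes for a double KO value above WT favours a low WT value.

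Other antiviral effectors and regulators had the same order of libraries. Mx1, a GTPase that blocks influenza viruses, was 2.67 in the double KO, 0.912 in Ezh1 KO cells, 1.85 in Ezh2 KO cells and 0.748 in WT. Ifih1, the RNA sensor MDA5, was 4.99 in the double KO, 3.16 in Ezh1 KO cells, 5.12 in Ezh2 KO cells and 2.34 in WT. Both genes were thus at least 2-fold above WT in the double KO. Irf7, a transcription factor that amplifies interferon production, was 9.82 in the double KO, 5.21 in Ezh1 KO cells, 9.69 in Ezh2 KO cells and 3.85 in WT. Usp18, which removes Isg15 from proteins, was 5.89 in the double KO, 2.77 in Ezh1 KO cells, 5.24 in Ezh2 KO cells and 2.35 in WT. The 2-5A synthetases and their relatives, a family whose enzymes trigger RNA decay, gave 5 of the 14 higher genes. Oasl2 was 3.00 in the double KO, 1.30 in Ezh1 KO cells, 4.77 in Ezh2 KO cells and 0.677 in WT. Oas1a was 2.29 in the double KO, 0.9 in Ezh1 KO cells, 3.05 in Ezh2 KO cells and 0.698 in WT. Oas and Ifit paralogs share sequence, so reads may be split between them and their single values are uncertain. Ifit3 was 32.4 in the double KO and 11.5 in WT, and its near copy I830012O16Rik (Ifit3b in RefSeq) 22.8 in the double KO and 8.33 in WT.

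Ratios were uneven within the list. Irf9, a transcription factor of the interferon response, was 8.58 in the double KO and 7.87 in WT (log2 ratio 0.12). Ifit2, an RNA-binding antiviral protein, was 2.42 in the double KO and 2.35 in WT (0.04). Psmb9, an immunoproteasome subunit, was 5.74 in the double KO and 6.58 in WT (-0.19). Ifi204, a DNA sensor family member, was lower by the mean over exons, at 0.555 in the double KO and 1.39 in WT (-1.18), but by the median over exons the ratio was 0.15. No MHC class I or antigen-processing gene differed by 2-fold, and of all genes compared 1.24% did. The 15 measured had a median log2 ratio of 0.08.

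Other antiviral and leukocyte genes outside the list were also among the higher ones. Ube2l6, which carries Isg15 to its targets, was 1.03 in the double KO, 0.493 in Ezh1 KO cells, 1.30 in Ezh2 KO cells and 0.346 in WT. Pml, the scaffold of nuclear bodies, was 2.84 in the double KO, 1.71 in Ezh1 KO cells, 2.36 in Ezh2 KO cells and 1.21 in WT. WT was again the lowest library for both. Rnf213, a giant ubiquitin ligase, was 11.8 in the double KO, 6.47 in Ezh1 KO cells, 9.34 in Ezh2 KO cells and 4.70 in WT. Ifitm3, which blocks viral entry, was 1.57 in the double KO, 0.416 in Ezh1 KO cells, 2.18 in Ezh2 KO cells and 0.351 in WT. Slfn9, a Schlafen family member, was 2.77 in the double KO, 1.10 in Ezh1 KO cells, 2.86 in Ezh2 KO cells and 0.672 in WT, while the other 5 Schlafen genes at the minimum stayed under 2-fold. Plac8, a small cysteine-rich protein of leukocytes, was 3.04 in the double KO, 0.731 in Ezh1 KO cells, 7.47 in Ezh2 KO cells and 0.680 in WT.

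**Figure D2:**
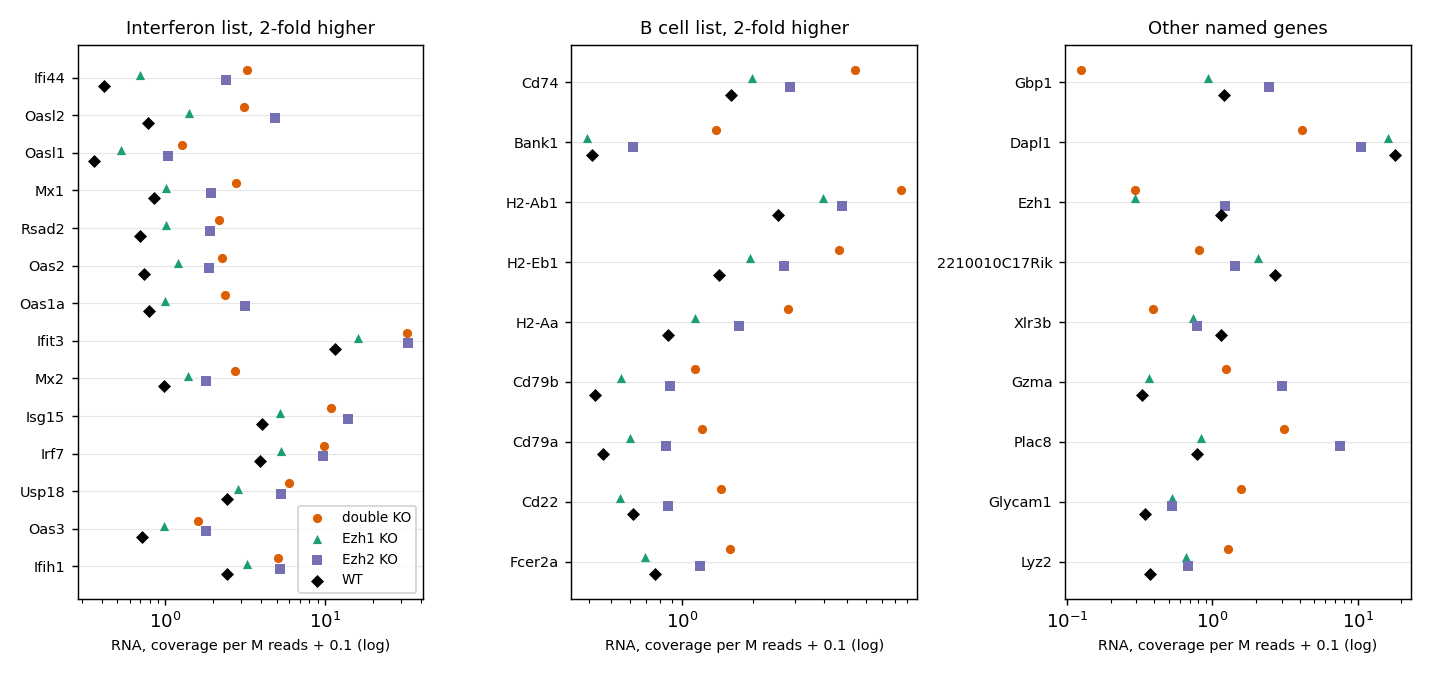
RNA as mean peak coverage per M reads plus 0.1 (log axis) in the double KO, Ezh1 KO, Ezh2 KO and WT libraries, 1 point per library, for the higher interferon-list genes, higher B cell-list genes and other named genes. WT is lowest for each of the 14 interferon genes, and the double KO is highest for each B cell-list gene shown, such as Bank1 at 1.29 against 0.315 in WT. Genes of these lists were picked for a double KO value above WT, which favours low WT and high double KO values.

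B cell genes were the second group. Of 30 listed, 29 were measured and 12 reached the minimum, 10 of them (83.3%) at least 2-fold higher and none lower, against 1.07% and 0.169% of all genes. Only 5 of the 12 were at 1 or more in WT, so most of these genes entered the comparison through their double KO value. Over the 29 measured, 28 were higher by any amount, against 43.6% of all genes without a minimum. The summed value of the list was 40.8 in the double KO, 17.2 in Ezh1 KO cells, 26.1 in Ezh2 KO cells and 15.4 in WT.

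Cd79a, a signalling chain of the B cell receptor, was 1.12 in the double KO, 0.499 in Ezh1 KO cells, 0.755 in Ezh2 KO cells and 0.359 in WT (log2 ratio 1.40). Bank1, a B cell scaffold protein, was 1.29 in the double KO, 0.294 in Ezh1 KO cells, 0.519 in Ezh2 KO cells and 0.315 in WT (1.74). The double KO stood above the other 3 libraries for both genes, though picking them for a double KO value above WT favours this. The MHC class II genes, which present antigen to CD4 T cells and are active in B cells, dendritic cells and macrophages, were higher too. H2-Ab1 was 8.37 in the double KO, 3.86 in Ezh1 KO cells, 4.66 in Ezh2 KO cells and 2.45 in WT (1.73). Cd74, the class II invariant chain, was 5.30 in the double KO, 1.87 in Ezh1 KO cells, 2.77 in Ezh2 KO cells and 1.51 in WT (1.74). Ciita, the activator of class II genes, was below the minimum at 0.627 in the double KO and 0.241 in WT. The class II genes H2-Ab1, H2-Aa and H2-Eb1 lie together at chr17:34400185-34453144 (mm9), and H2-Eb1 was under 2-fold by the median over exons (0.72). H2-DMb2, a chain of the class II peptide exchanger that was not on the list, was 1.28 in the double KO, 0.339 in Ezh1 KO cells, 0.495 in Ezh2 KO cells and 0.248 in WT (1.99). Sykb (Syk in RefSeq), a kinase that acts below the B cell receptor, was 1.04 in the double KO, 0.292 in Ezh1 KO cells, 0.712 in Ezh2 KO cells and 0.347 in WT (1.35). The 3 markers of antibody-secreting cells stayed under 2-fold. Xbp1 was 3.20 in the double KO and 3.04 in WT, and Sdc1 was 0.0319 in the double KO and 0.0432 in WT. Igj was 0.419 in the double KO, 0.423 in Ezh1 KO cells, 1.79 in Ezh2 KO cells and 0.260 in WT (0.53). Sdc1 and Igj were below the minimum.

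All 6 B cell markers were higher in the double KO, in step with this list, of which they are members. In a bulk library more cells of a type and more RNA per cell cannot be told apart, and the part of B cells in the preparation was not tested. Genes of other non-T cells were also among the higher ones. Lyz2, the lysozyme of macrophages and neutrophils, was 1.19 in the double KO, 0.561 in Ezh1 KO cells, 0.576 in Ezh2 KO cells and 0.275 in WT. Apoe, a lipid carrier made by macrophages, was 1.90 in the double KO, 1.04 in Ezh1 KO cells, 1.26 in Ezh2 KO cells and 0.552 in WT. Glycam1, a mucin made by lymph node vessels, was 1.47 in the double KO, 0.432 in Ezh1 KO cells, 0.431 in Ezh2 KO cells and 0.244 in WT. For these 3 genes too the double KO was the highest library. The 3 dendritic cell markers summed to 0.661 in the double KO, 0.211 in Ezh1 KO cells, 0.357 in Ezh2 KO cells and 0.218 in WT. Csf1r and Itgam, which define monocytes and macrophages, stayed low, with Csf1r at 0.0526 in the double KO and 0.0313 in WT and Itgam at 0.0493 in the double KO and 0.0586 in WT. Gzma, a granzyme of cytotoxic lymphocytes, was 1.13 in the double KO, 0.270 in Ezh1 KO cells, 2.90 in Ezh2 KO cells and 0.226 in WT. The 6 NK cell markers, of which Gzma is one, summed to 2.69 in the double KO, 1.80 in Ezh1 KO cells, 5.57 in Ezh2 KO cells and 2.12 in WT. Without Gzma the other 5 summed to 1.56 in the double KO and 1.89 in WT. They summed to 1.53 in Ezh1 KO cells and 2.67 in Ezh2 KO cells. Prf1 made up most of that sum in the double KO (1.06) and in WT (1.43). Of the 5, 3 were lower in the double KO than in WT. Gzmb, at 0.161 in the double KO and 0.0871 in WT, and Nkg7, at 0.220 in the double KO and 0.204 in WT, were higher. The 2 CD8 T cell markers summed to 2.07 in the double KO and 1.22 in WT, and neither was 2-fold higher.

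The lower genes were few. Gbp1 (Gbp2b in RefSeq), an interferon-induced GTPase, was 0.0245 in the double KO, 0.835 in Ezh1 KO cells, 2.37 in Ezh2 KO cells and 1.11 in WT (log2 ratio -3.27). Its relative Gbp2 was 8.03 in the double KO and 5.84 in WT, and Gbp5 was 2.32 in the double KO and 1.39 in WT, so the low value was not shared by these 2 genes. Guanylate-binding proteins are a family of similar sequence, and their single values are uncertain. Dapl1, a gene of naive T cells, was 4.06 in the double KO, 16.1 in Ezh1 KO cells, 10.4 in Ezh2 KO cells and 17.9 in WT (-2.11). The double KO had the lowest Dapl1 value, with the Ezh2 KO between it and the other libraries. The gene listed as 2210010C17Rik (Igsf23 in RefSeq) was 0.705 in the double KO, 1.96 in Ezh1 KO cells, 1.33 in Ezh2 KO cells and 2.59 in WT (-1.74). Xlr3b, of an X-linked lymphocyte-regulated family whose copies share reads, was 0.290 in the double KO, 0.641 in Ezh1 KO cells, 0.687 in Ezh2 KO cells and 1.05 in WT (-1.56). Gm14085 (Slc28a2b in RefSeq) was 0.866 in the double KO, 2.91 in Ezh1 KO cells, 1.90 in Ezh2 KO cells and 2.33 in WT (-1.33). The double KO was the lowest library for these 3 genes. Hist1h2bb, a replication-dependent histone that is uncertain for the same reason, was 14.03 in the double KO, 9.24 in Ezh1 KO cells, 15.5 in Ezh2 KO cells and 31.7 in WT (-1.17), so that all 3 mutant libraries lay below WT.

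Other naive T cell genes stayed under 2-fold, as did most genes compared. Of 22 naive T cell genes at the minimum, Dapl1 was the 1 that differed by 2-fold, and the list's median log2 ratio was -0.05. Tcf7, a transcription factor of naive and memory T cells, was 13.8 in the double KO, 12.5 in Ezh1 KO cells, 12.0 in Ezh2 KO cells and 10.1 in WT (0.45). S1pr1, a sphingosine phosphate receptor needed for lymph node exit, was 13.1 in the double KO, 15.1 in Ezh1 KO cells, 12.9 in Ezh2 KO cells and 20.4 in WT (-0.63). None of the 20 T cell receptor and proximal signalling genes differed by 2-fold (median -0.18). Of all genes compared 1.24% did, so a list of this size with none is near that share. No gene of the Th1, Th2, Th17, Treg or Tfh lists did so either, though only 2 to 4 genes of each reached the minimum. Memory and effector genes gave 1 higher gene of 13 (7.69%), against 1.07% of all genes. It was Ccl5, a chemokine of memory and cytotoxic T cells. Ccl5 was 2.56 in the double KO, 1.47 in Ezh1 KO cells, 2.08 in Ezh2 KO cells and 0.918 in WT. Its WT value was below the minimum. In the CD8 T and NK cell list, 2 of 6 genes at the minimum were higher (33.3%), Gzma and again Ccl5. Both were under 1 in WT and entered through their double KO value, and none of the 4 at 1 or more in WT was higher by 2-fold. Over all 17 genes of the list, 10 were higher and 7 lower by any amount, with a median log2 ratio of 0.08. Without a minimum, 43.6% of all genes were higher.

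Cell cycle genes were slightly higher and none passed 2-fold, which 1.24% of all genes compared did. Of 21 at the minimum, 15 were higher by any amount, against 32.9% of all genes, with a median log2 ratio of 0.09. Mki67, a marker of dividing cells, was 1.37 in the double KO, 0.937 in Ezh1 KO cells, 1.5 in Ezh2 KO cells and 0.885 in WT (0.58). Ccnd2, a G1 cyclin, was 5.57 in the double KO, 4.51 in Ezh1 KO cells, 5.57 in Ezh2 KO cells and 3.47 in WT (0.67). Ribosomal protein genes were slightly lower, 49 of 52 by any amount against 67.1% of all genes, with a median of -0.28 (-0.18 with either scaling of the libraries), and so were mitochondrial respiratory chain genes, with a median of -0.24 over 41. Beside these 2 lists, the median of all genes moved with exonic length, at -0.20 in the shortest quartile (median 1219 bp) and -0.02 in the longest. The part of length in these medians was not tested.

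**Figure D3:**
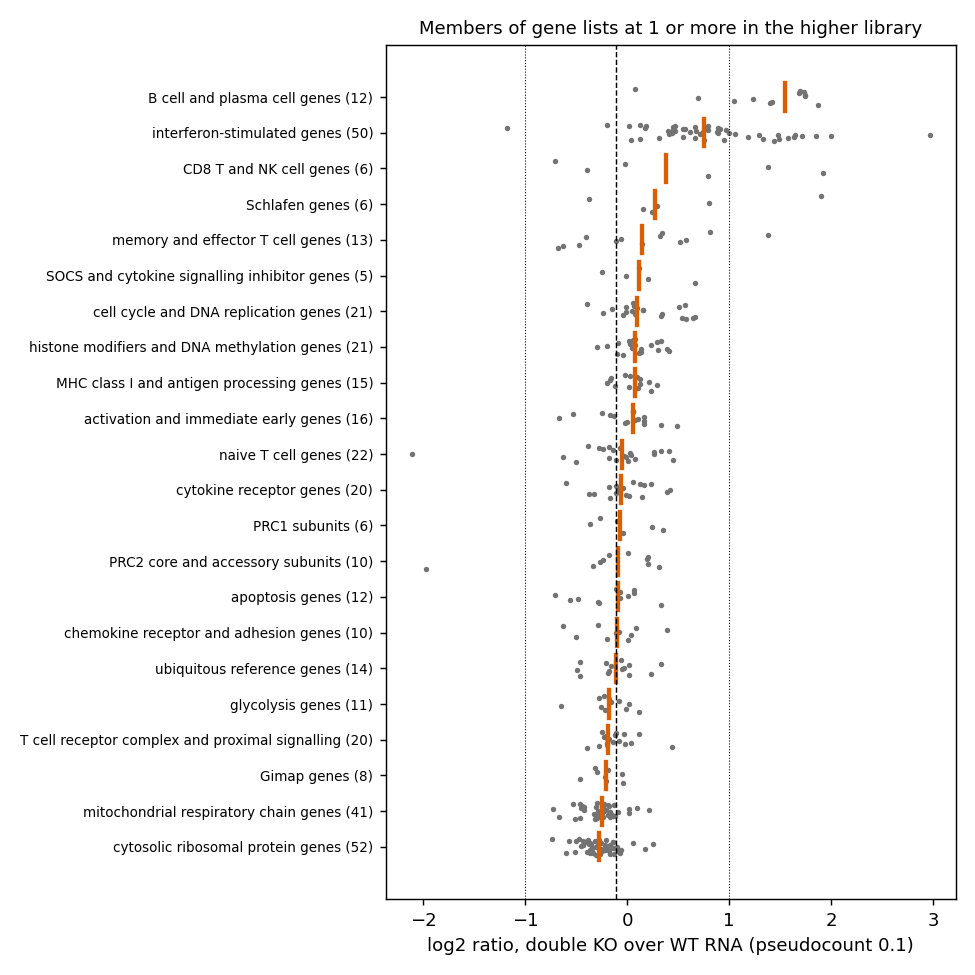
log2 ratio of RNA, double KO over WT, for each member at 1 or more in the higher library, by gene list; 1 grey dot per gene, an orange bar for the list's median, the dashed line for the median of all genes (-0.10) and dotted lines for 2-fold. Only lists with 5 or more such members are drawn; among these the B cell list (median 1.55) and the interferon list (0.75) have the highest medians, and ribosomal protein genes the lowest (-0.28).

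Classical targets of Polycomb were near 0 in both libraries. None of 39 Hox genes reached the minimum in either library, and the highest in the double KO was Hoxb4 at 0.0714. None of 68 non-lymphoid developmental transcription factors did so, and the highest was Nkx2-1, at 0.0992 in the double KO and 0.12 in WT. Cdkn2a, the tumour suppressor locus known as a PRC2 target in many cells, was 0.0348 in the double KO and listed at 0 in WT. The median H3K27me3 signal per 6 kb promoter window was 73.3 in the double KO and 63.1 in WT over the Hox genes. Over the developmental factors it was 69.6 in the double KO and 53.5 in WT. These values are per M reads of each library, so they cannot show a change in the total amount of the mark. Across 2276 promoters marked by H3K27me3 in WT, meaning at least 4 times the background of active genes, the median RNA value was 0.00993 in the double KO and 0.00987 in WT. Of these, 45 (1.98%) were at 1 or more in the double KO and 46 (2.02%) in WT. Among all genes with a window, 25.5% were so in the double KO and 26.3% in WT. Of the 47 marked genes at the minimum in either library, 2 were at least 2-fold higher, against 1.07% of all genes. These 2, Lpl and Sv2c, were higher by the mean over exons and not by the median.

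Promoter H3K27me3 of the higher genes had similar medians in both libraries. This mark was measured as summed coverage per M reads over a 6 kb window at each start site, in 1 library per genotype. Such values give the mark's share within a library, so a change in its total amount between genotypes cannot be read from them. Over the 49 higher genes with a window the median was 13.0 in the double KO and 13.6 in WT, and 25 (51%) were lower by any amount, against 38.8% of all genes compared. Among the 13 higher interferon genes with a window it was 10.99 in the double KO and 12.6 in WT, with 4 lower. Among the 10 higher B cell genes it was 11.3 in the double KO and 13.8 in WT, with 8 lower. H2-Ab1 was the 1 higher gene whose window was at least 2-fold lower, at 13.1 in the double KO, 30.4 in Ezh1 KO cells, 20.9 in Ezh2 KO cells and 28.0 in WT. Such a drop was seen in 0.0396% of all genes compared. Plac8 came close, at 13.0 in the double KO, 26.5 in Ezh1 KO cells, 14.7 in Ezh2 KO cells and 26.9 in WT. The windows of Gbp1 and Dapl1, which were lower in RNA, did not differ by 2-fold: Dapl1 was 15.5 in the double KO and 14.1 in WT, and Gbp1 was 13.1 in the double KO and 17.5 in WT.

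Taken from the side of the mark, 25 windows were at least 2-fold lower in the double KO, and RNA of 21 of these genes was higher by any amount, against 43.6% of all genes. Most were weakly expressed: 23 of the 25 were below the RNA minimum. Cd24a, a surface glycoprotein of B cells and immature T cells, was 0.831 in the double KO, 0.379 in Ezh1 KO cells, 0.487 in Ezh2 KO cells and 0.316 in WT. Pik3ap1, an adaptor of B cell receptor signalling, was 0.401 in the double KO, 0.158 in Ezh1 KO cells, 0.249 in Ezh2 KO cells and 0.133 in WT. In these 2 genes, as in the B cell list, the double KO was the highest library. The part of B cell chromatin and RNA in these windows was not tested.

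At the promoters of all 20 T cell receptor genes H3K27me3 was higher in the double KO, with a median log2 ratio of 0.56 against 0.04 for all genes compared, of which 2957 of 5048 were higher by any amount, and RNA of 17 of the 20 was lower by any amount, against 67.1% of all genes. At Cd4 the window was 212 in the double KO, 24.1 in Ezh1 KO cells, 193 in Ezh2 KO cells and 19.9 in WT, so that the 2 genotypes labelled with CD4-cre stood apart; a window at least 2-fold higher was found for 0.0792% of all genes compared. Cd4 RNA was 16.3 in the double KO, 13.6 in Ezh1 KO cells, 15.7 in Ezh2 KO cells and 16.6 in WT. The part of the transgene's Cd4 sequence in this signal was not tested.

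**Figure D4:**
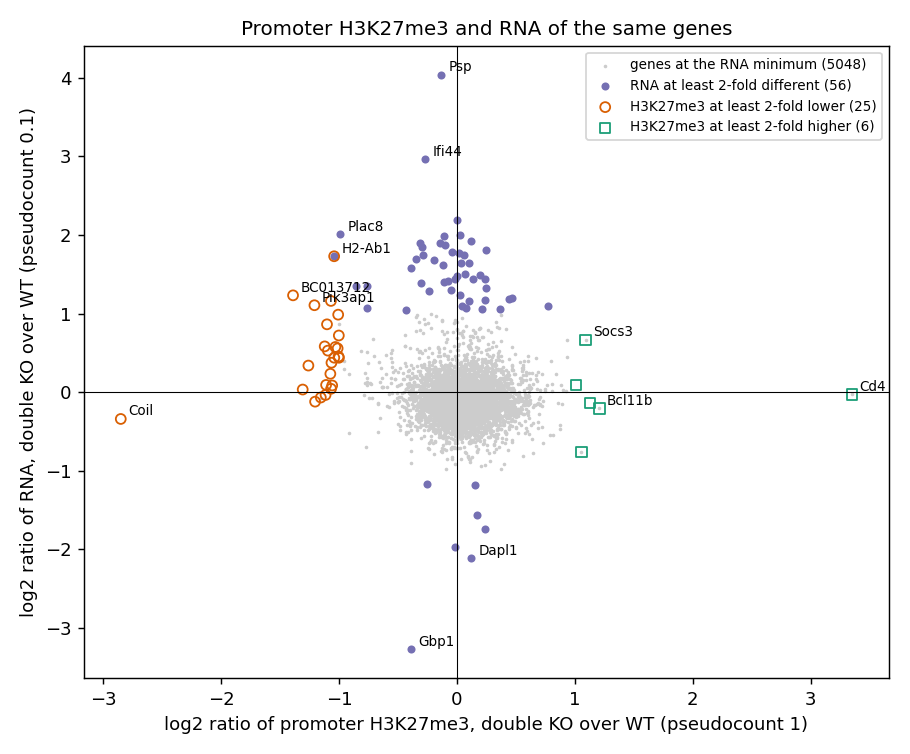
log2 ratio of RNA (vertical) against log2 ratio of promoter H3K27me3 (horizontal), both double KO over WT; 1 point per gene, with purple points for RNA at least 2-fold different, orange circles for H3K27me3 at least 2-fold lower and green squares for at least 2-fold higher. Purple points spread over both sides of 0 on the horizontal axis, and 21 of the 25 orange circles lie above 0 on the vertical axis.

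For a few calls the mean and the median over exons differed. Lpl, lipoprotein lipase, was 4.69 in the double KO and 1.27 in WT by the mean over its 10 exons, but 0.0159 in the double KO and 0.0194 in WT by the median. Lars2, the mitochondrial leucyl-tRNA synthetase, was 15.1 in the double KO and 5.47 in WT by the mean, and 0.182 in the double KO and 0.194 in WT by the median. Ccdc107 was 58.0 in the double KO and 25.6 in WT by the mean, and 0.648 in the double KO and 0.768 in WT by the median. In these 3 genes the median exon differed by less than 2-fold between the libraries.

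**Figure D5:**
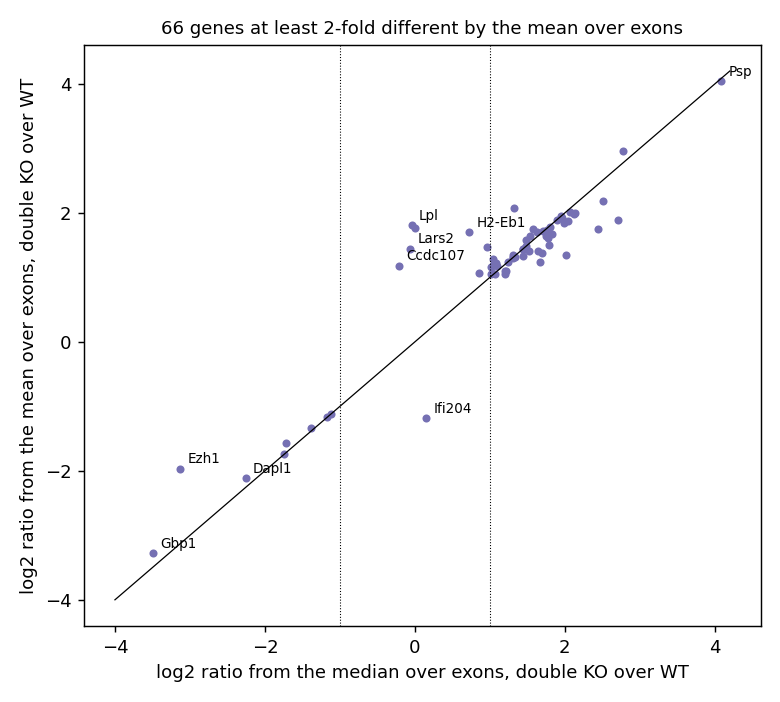
log2 ratio of RNA, double KO over WT, from the mean over exons (vertical) and from the median over exons (horizontal) for the 66 genes at least 2-fold different by the mean; the diagonal marks equal ratios and dotted lines 2-fold by the median. Lpl, Lars2 and Ccdc107 lie near 0 on the horizontal axis, and Ifi204 at 0.15 lies on the other side of 0.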

How the data were processed

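RNA-seq and H3K27me3 ChIP-seq libraries of 4 genotypes were used, 1 library per group. Per the labels, reads were aligned to mm9 with Bowtie 0.12.7. Cufflinks, Cuffdiff and bcl2fastq also appear in the submitters' processing notes, with no step given. The RNA library protocol and the strand of counting are not given in the sources used here. The deposited RNA files hold a coverage signal, the exon peaks of each gene summarised as a mean and as a median, per the file headers. The deposited ChIP signal is the coverage area of a window at each start site. The deposited RNA files also give another number per gene, that of its exons. Coverage is no count, so no counting interval was computed.

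Here, log2 ratios were computed with a pseudocount of 0.1 for RNA and 1 for ChIP (Python 3.11.15, numpy 2.4.6, pandas 2.3.3), on genes at 1 or more in the higher library, and 2-fold differences were counted. Calling was tested on simulated data. In the files 4403 genes have no symbol, of which 3426 IDs were matched to one. Named were Ezh1 and Ezh2, and from each list the members 2-fold different or else the 3 with the largest change. Also named were the 20 highest and up to 20 lowest genes that were 2-fold different by mean and median over exons. This rule took only genes with a deposited symbol, and 8 lower genes, with or without one, were 2-fold by both. Other genes named, among them those near a threshold, those with other H3K27me3 windows and relatives of a named gene, were chosen after their values were seen. The genes, lists and rules were chosen with earlier results of these data known. Some genes of the lists are counted but not reported by name here. Alternatives were other pseudocounts, minimums, thresholds, scalings and the median over exons.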

Additional observations from a re-analysis of the deposited data

How the results depend on the processing

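No paired analysis was possible because each group has 1 library, and no replicate could be left out. Of the 57 genes at least 2-fold higher and 9 lower, other pseudocounts gave 22 higher and 4 lower (pseudocount 1) and 16 lower (pseudocount 0.01). A minimum of 5 gave 15 higher and 2 lower, a minimum of 0.5 gave 16 lower, no minimum gave 126 higher and 30 lower, and a minimum of 1 in WT gave 19 higher. A threshold of 1.5-fold gave 141 higher and 124 lower, and 4-fold gave 5 higher and 2 lower. The median over exons gave 48 higher. The median log2 ratio of all genes became -0.000247 with median-of-ratios scaling and -0.0017 with trimmed-mean scaling. It was 0 when centred within quartiles of exonic length, an alternative added after seeing the data. The scalings and the centring bring this median to 0 or near it by construction. The scalings gave 69 higher. The interferon list had 14 higher genes as reported, 7 with pseudocount 1, 5 with a minimum of 1 in WT and 18 with either scaling. The B cell list had 10, then 4, 3 and 10 under the same settings. Of 116 named genes, 23 that were 2-fold different as reported fell under 2-fold with pseudocount 1. The ratio of Ifi204 changed sign to 0.15 by the median over exons; the cause was not tested. Many higher genes were under 1 in WT, the shallower library, which limits how well their ratios are known.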

Other observations

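Genes of salivary glands were detected at low level in these lymph node cells. Psp (Bpifa2 in RefSeq), the parotid secretory protein, was 1.55 in the double KO, 0.825 in Ezh1 KO cells, 0.577 in Ezh2 KO cells and listed at 0 in WT. Amy1, salivary amylase, was 0.362 in the double KO, 0.233 in Ezh1 KO cells, 0.193 in Ezh2 KO cells and 0.0269 in WT. Amy2a5, pancreatic amylase, had another order, at 0.252 in the double KO, 1.87 in Ezh1 KO cells, 3.32 in Ezh2 KO cells and 0.114 in WT. Amylase genes share sequence and their single values are uncertain.

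Mtmr9, a myotubularin-family protein, stood alone in the double KO, at 1.76 there, 0.527 in Ezh1 KO cells, 0.516 in Ezh2 KO cells and 0.557 in WT. Dtx1, a Notch pathway ubiquitin ligase, was 7.06 in the double KO, 3.77 in Ezh1 KO cells, 6.19 in Ezh2 KO cells and 3.26 in WT. Haemoglobin RNA went the other way: Hba-a1 was 0.041 in the double KO, 0.124 in Ezh1 KO cells, 0.0246 in Ezh2 KO cells and 0.399 in WT. Of the 57 higher genes, 16 lay in 7 clusters of neighbours within 100 kb, among them Mx1 with Mx2 and Oasl1 with Oasl2. The share of such neighbours among all genes compared was not computed, so this count has no background beside it. Several of these neighbours are paralogs, whose reads may be shared.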
